A study of Mus musculus with 14 samples.

Results

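Pou5f1 (encoding OCT4), Sox2, Nanog and Sall4 encode transcription factors that hold mouse embryonic stem cells (mESCs) in the pluripotent state. The 4 genes were taken by their symbols from 52459 genes in the count tables of an actinomycin D time course, and m6A peaks were assigned to them where a peak overlapped one of their exons. The study compared wild-type (WT) E14Tg2a mESCs, an established line, with a METTL14 R255K knock-in of the same line, in which an arginine of METTL14 was replaced by lysine with CRISPR-Cas9. Both genotypes grew in medium with serum and LIF on gelatin, and the knock-in line came from a single colony, so that it stands for 1 clone. For mRNA stability, cells of each genotype were harvested after 0, 4 and 8 h in 5 µg/ml actinomycin D, which blocks transcription, and 1 mRNA library was made per genotype and time. For m6A, untreated cells of each genotype gave 2 immunoprecipitated (IP) and 2 input libraries by MeRIP-seq, but 1 peak list per genotype was used here. With 1 library or list per condition there was no replicate to test against. No p-value is therefore given, and every interval below is a 95% interval of Poisson counting error only.

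OCT4 and SOX2 bind DNA together at many enhancers of pluripotency genes, and NANOG and SALL4 join them there and on each other's genes. OCT4 belongs to the POU family, SOX2 to the SOX family of HMG-box proteins, NANOG to the homeobox proteins and SALL4 to the spalt-like zinc finger proteins. m6A is a methyl mark placed on adenosines of mRNA by METTL3 and METTL14, mostly in the sequence context GGAC or a relative of it, and mRNAs that carry it are often degraded faster. Of this pair METTL3 transfers the methyl group, and METTL14 has no catalytic activity of its own.

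The 6 time course libraries held 13812160 to 18813640 counts. Mettl14, the edited gene, had 209 to 681 counts in them, which cannot show the change of a single codon. Its level before treatment was lower in the knock-in clone. Mettl14 made up 681 of the 17428469 counts of the untreated WT library, but only 299 of the 15642076 of the untreated R255K library. With 1 library per genotype this difference was not tested. All 4 genes passed the minimum of 1 FPKM (counts scaled to exon length in kilobases and to the library total) at 0 h, which 11869 genes reached. Genes that share exon bases with the factors, Sox2ot and the pseudogenes named after a factor held almost no counts. Copies under other names were not searched for, and no sequences were compared. Gm14261, which shares 526 exon bases with Sall4 on the other strand, had at most 17 counts, and Sox2ot, Nanog-ps1, Nanog-ps2 and Gm19553 had at most 10. Most markers of other cell types were low in both 0 h libraries. The 5 trophoblast markers summed to 15.1 FPKM in WT and 49 FPKM in R255K, of which Krt8 alone made 9.6 and 35.7, and 3 of the 5 in WT and 2 of the 5 in R255K were under 1 FPKM. The sums of the endoderm, mesoderm, ectoderm, 2-cell-like and fibroblast lists ranged from 0 to 16.9 FPKM. The highest single marker of these lists in WT was Sox1, at 13.4 of the 16.9 FPKM of the ectoderm list. Sox1 stood at 1.76 FPKM in R255K, where Nes was the highest at 6.39. Afp, Postn and Lum had 0 counts in both genotypes. The 5 genes of the 2-cell-like list had 0 counts in WT and a summed 4.15 FPKM in R255K. The part of all these markers in the differences below was not tested. In these bulk libraries, fewer cells with a transcript and less transcript per cell cannot be told apart.

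The m6A peaks of the 4 genes differed widely in number and position. In WT cells the factors carried 8 exonic peaks, 5 of them on Sall4 and 1 each on Pou5f1, Sox2 and Nanog. In R255K cells they carried 6, 4 on Sall4, 1 on Sox2, 1 on Nanog and 0 on Pou5f1. Each peak is described by the fold enrichment of IP over background at its highest point (its summit) and by the −log10 of its q-value. Of the 8 WT peaks, 2 had no overlapping R255K peak, against 47.9% of the 13870 exonic WT peaks of all genes. On genes of at least 50 FPKM in WT, a level that all 4 factors reached, this share was 27.2% of 875 peaks. Of the 6 WT peaks that were overlapped, 2 had a higher fold enrichment in R255K, against 29.4% of 6797 such peaks of all genes. The fold enrichment at the 8 WT peaks, 1.62 to 4.38, lay below the median of 6.17 over all exonic WT peaks, while the median on genes of at least 50 FPKM was 3.2.

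Pou5f1 had the peak with the lowest fold enrichment. Its only WT peak spanned chr17:35506087-35506336 (mm10) at the start of the coding region in exon 1, where IP stood 1.62-fold over background at a −log10 q of 6.85, and only 0.339% of exonic WT peaks had a lower fold. No R255K peak overlapped it. By −log10 q a WT peak of Sall4 was lower, at 4.41.

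Sox2, a gene with a single exon, carried the broadest peak, which ran from upstream of the annotated gene start into the 3′ UTR. In WT it spanned chr3:34650010-34651911, at 3.57-fold enrichment with a −log10 q of 88.9. In R255K it spanned chr3:34650012-34651862 with a higher fold enrichment, 5.93, and a higher −log10 q, 140. The fold at the summit was thus 1.66 times that of WT, and the summit lay 452 bases further along the gene. The WT summit fell in the coding region, 489 bases before the stop codon, and the R255K summit 37 bases before it.

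Nanog carried 1 peak in each genotype, in the last exon around the stop codon. The WT peak, chr6:122713133-122713674, was enriched 3.15-fold at a −log10 q of 61.5. The R255K peak, chr6:122713283-122713590, had 2.33 and 16.4, or 0.74 times the WT fold. Both summits lay in the coding region, 140 and 133 bases before the stop codon, so that the position was kept while the height and the width, 542 and 308 bp, were smaller in R255K.

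Sall4 carried 5 exonic peaks in WT, a number that 1.31% of the 11869 expressed genes reached or passed. The one with the highest fold enrichment in WT lay in the 3′ UTR, chr2:168749339-168749884, with its summit 356 bases after the stop codon, at 4.38 in WT and 3.86 in R255K. The widest, chr2:168755299-168756912 in exon 2, had its summit at the very same base in both genotypes, and its fold enrichment was 4.01 in WT and 4.96 in R255K. A peak over the first exon, whose interval also covered an exon of Gm14261, had 3.98 and 3.28, and a second peak in exon 2 had 2.28 and 1.75. The remaining peak, chr2:168750256-168750491 in exon 4, was enriched 1.67-fold at a −log10 q of 4.41 and had no counterpart in R255K. A further WT peak inside the gene lay in an intron and was not counted. Of the 4 kept Sall4 peaks, 3 were thus lower in R255K and 1 was higher, and the exonic bases under peaks went from 3194 in WT to 2048 in R255K.

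The letters near the summits are shown because GGAC is the commonest context of m6A. The lines below give 30 bases on the gene's strand (mm10) around the GGAC nearest to the summit, which is in capitals, and the summit itself can lie outside them. The Sox2 line for R255K also holds the stop codon.
Pou5f1, exon 1 coding region, WT only, chr17:35506225-35506254, plus strand: tgggcctggaatcGGACcaggctcagaggt
Sox2, coding region, nearest to the WT summit, chr3:34650879-34650908, plus strand: tgaaccagcgcatGGACagctacgcgcaca
Sox2, start of the 3′ UTR, nearest to the R255K summit, chr3:34651368-34651397, plus strand: acatgtgagggctGGACtgcgaactggaga
Nanog, exon 4 coding region, both genotypes, chr6:122713383-122713412, plus strand: ataacttcggggaGGACtttctgcagcctt
Sall4, exon 2 coding region, both genotypes, chr2:168756471-168756500, minus strand: agaagctgggcacGGACtccatcctgtact
Sall4, exon 4 coding region, WT only, chr2:168750295-168750324, minus strand: ccgcggtgagtgtGGACcccgcctcctgga
Sall4, exon 4 3′ UTR, both genotypes, chr2:168749676-168749705, minus strand: ttctgttaatttgGGACaaattatattcta
The A of these GGAC motifs lay between 2 bases (the Sall4 peak lost from exon 4) and 47 bases (Sox2 in R255K) from the summit. At Nanog and at the Sall4 peaks in exon 2 and the 3′ UTR, the nearest GGAC was the same one in both genotypes.

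GGAC, searched on the gene's strand in the 201 genomic bases centred on the summit, was present at 6 of the 8 WT peaks and 4 of the 6 R255K peaks of the factors. Over the exonic peaks of all genes it was present at 78.8% in WT and 81.8% in R255K, so that the share at the factors was near that of peaks in general. The peaks without it were those over exon 1 of Sall4 and the second one in exon 2, where GAAC (exon 1) or AGAC and AAAC (exon 2) were found instead. AGAC was present at 68.4%, GAAC at 60.7% and AAAC at 50.9% of all exonic WT peaks. Along the whole spliced transcript, GGAC stood 5.14 times per kb in Pou5f1, 4.86 in Sox2, 4.98 in Nanog and 4.14 in Sall4. Pou5f1, with the lowest fold enrichment, thus had the densest GGAC of the 4. The median of expressed genes was 3.85, but it was taken over all exons of each gene. It is therefore not a like measure to that of a single transcript.

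**Figure D1:**
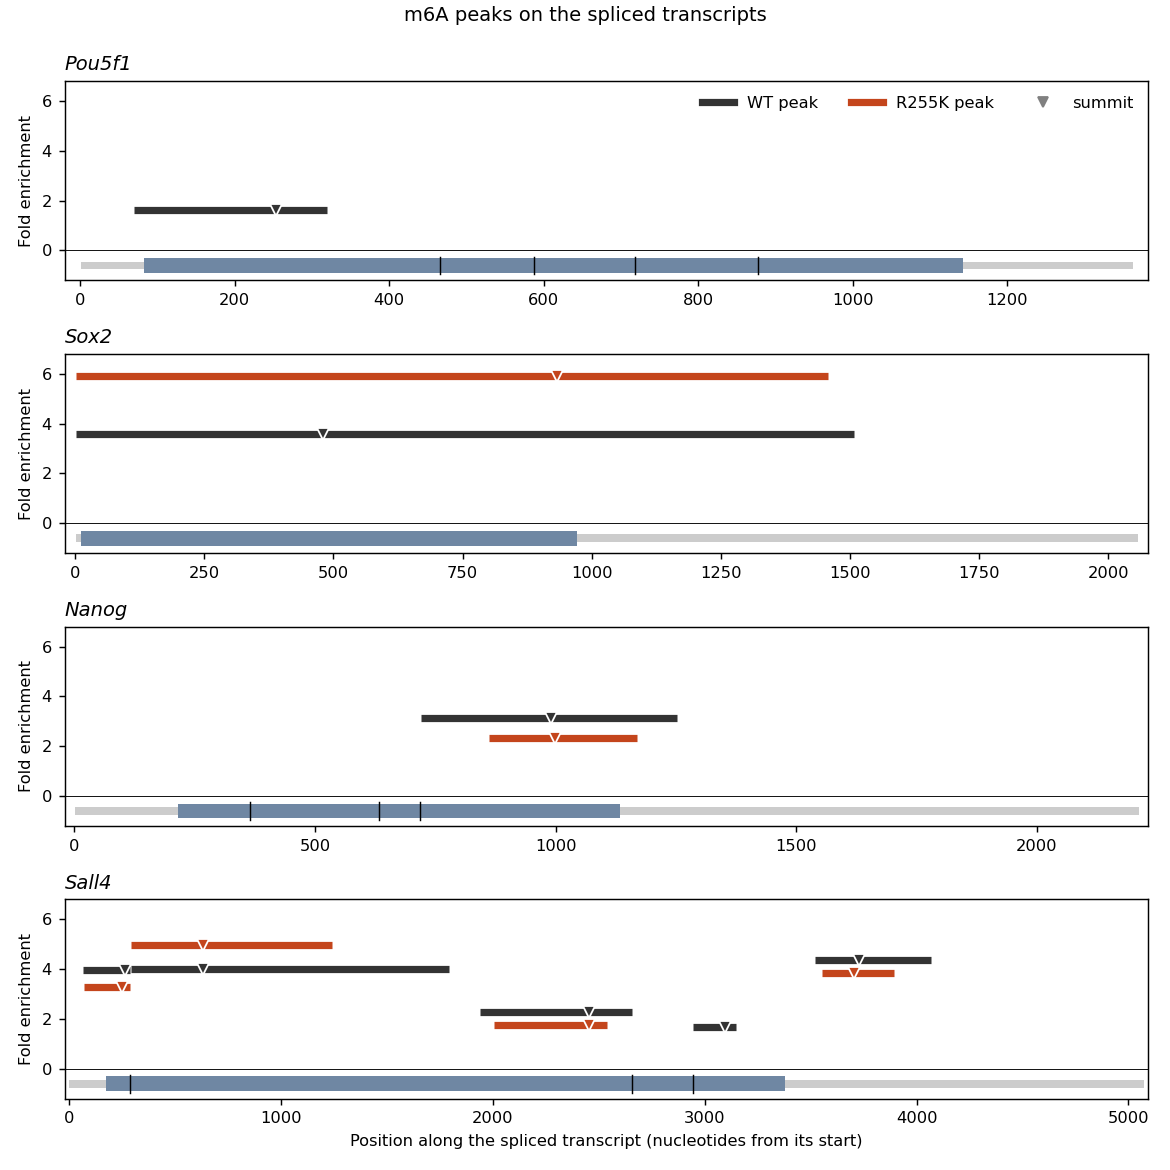
Fold enrichment at the summit (vertical axis) of each m6A peak on the exons of the 4 genes, drawn along the spliced transcript in nucleotides from its start, for the WT (dark) and R255K (orange) lists. Bars span the peak, triangles mark the summit, and the strip at the bottom shows untranslated (grey) and coding (blue) parts with exon borders as black ticks. The single Pou5f1 peak at 1.62 and the Sall4 peak at 1.67 have no R255K bar, and the Sox2 bar is higher in R255K (5.93) than in WT (3.57).

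With libraries scaled to their totals, none of the 4 transcripts differed by as much as 1.5-fold between untreated cells of the genotypes. Pou5f1 stood at 433 FPKM in WT and 385 in R255K, Sox2 at 230 and 182, Nanog at 220 and 174, and Sall4 at 65.7 and 70.7. By level they ranked 55, 180, 202 and 961 among the 11869 genes in WT and 85, 308, 327 and 996 in R255K. Sox2 and Nanog were neighbours in this order in both genotypes, at FPKM intervals of 225 to 235 and 215 to 224 in WT, which do not overlap, and of 178 to 187 and 170 to 178 in R255K, which touch.

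On the scale log2(FPKM + 1), the R255K level minus the WT level at 0 h was −0.17 (−0.20 to −0.14) for Pou5f1, −0.33 (−0.38 to −0.29) for Sox2, −0.33 (−0.38 to −0.29) for Nanog and 0.10 (0.05 to 0.15) for Sall4. The count past 1.5-fold was thus 0 higher and 0 lower, against 17.0% of all expressed genes higher and 15.7% lower. These intervals hold no spread between cultures, and the directions depended on the scaling. With libraries scaled to Gapdh, which had only 242 to 2357 counts, all 4 differences were above 0, and that scaling put the median gene at 1.49, against 0.06 with library totals. Scaled to ribosomal protein genes or corrected for GC content, the Sall4 difference was −0.05 or −0.01.

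Under actinomycin D the 4 transcripts followed 4 different courses. Levels below are shares of each genotype's own 0 h level after scaling to the library total, so a transcript that outlasts the average mRNA shows a share over 100%. Over the 11847 genes that passed the FPKM minimum and had counts at 0 h in both genotypes, the median share was 88.9% at 4 h and 65.8% at 8 h in WT, and 96.7% and 92.4% in R255K. The scale moves these medians. From 0 to 8 h the log2 change of the median gene was −0.60 in WT and −0.11 in R255K with library totals, −0.08 and 0.02 with TMM factors, −1.34 and −0.33 with ribosomal protein genes, and −2.18 and −2.35 with Gapdh.

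Pou5f1 did not decay relative to the rest of the mRNA in either genotype, except that it had a positive decay rate in R255K (0.152 per h) with Gapdh as the scale. Its counts at 0, 4 and 8 h were 16974, 20227 and 24209 in WT and 13537, 18272 and 21023 in R255K. These correspond to 433, 601 and 780 FPKM in WT and to 385, 437 and 497 FPKM in R255K. The share of the 0 h level was thus 139% (136 to 141) at 4 h and 180% (176 to 184) at 8 h in WT, and 114% (111 to 116) and 129% (126 to 132) in R255K. Both genotypes went up at each step, and the WT libraries went up more. At 8 h the R255K share was 0.717 times the WT share (0.697 to 0.739), and 13.1% of all genes had a lower ratio. With ribosomal protein genes as the scale the ratio was 1.03, so the lower share in R255K did not hold under that scale. No half-life can be given for a transcript without net decay, and 39.7% of all genes in WT and 45.4% in R255K had none.

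Sox2 decayed fastest in both genotypes. With library totals as the scale the shares left did not differ between the genotypes beyond counting error. Its counts were 8244, 493 and 294 in WT and 5864, 492 and 286 in R255K, or 230, 16 and 10.3 FPKM in WT and 182, 12.9 and 7.39 FPKM in R255K. At 4 h, 6.96% (6.35 to 7.62) of the 0 h level remained in WT and 7.06% (6.44 to 7.74) in R255K, and at 8 h 4.5% (4.01 to 5.06) and 4.06% (3.6 to 4.57). The intervals of the genotypes overlapped at both times. The ratio of the R255K share to the WT share was 1.01 (0.891 to 1.15) at 4 h and 0.901 (0.763 to 1.06) at 8 h. Other scales moved the 8 h ratio out of that interval in either direction, to 0.688 with TMM factors, 0.572 with Gapdh and 1.29 with ribosomal protein genes. In R255K, only 0.355% of all genes kept a smaller share at 8 h than Sox2, and in WT 3.74%. The loss was steep before 4 h and slower after it, with half-lives of 1.04 h (WT) and 1.05 h (R255K) from 0 to 4 h, and of 6.37 h and 5 h from 4 to 8 h.

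Nanog decayed in WT and hardly at all in R255K. Its counts were 8577, 4926 and 2763 in WT and 6100, 6946 and 6417 in R255K, or 220, 147 and 89.2 FPKM in WT and 174, 167 and 152 FPKM in R255K. The WT share was 66.8% (64.5 to 69.2) at 4 h and 40.6% (38.9 to 42.4) at 8 h. The R255K share was 95.8% (92.5 to 99.1) and 87.5% (84.5 to 90.6). R255K had the lower level at 0 h and the higher one at 4 h and 8 h, and the log2 difference went from −0.33 through 0.18 to 0.76. The share that remained at 8 h was 2.15 times that of WT (2.04 to 2.27), close to the middle of all genes in each genotype, since 37.9% of genes in WT and 45.8% in R255K kept a smaller share.

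Sall4 decayed fast in WT, and in R255K it did not decay further after 4 h. Its counts were 6343, 885 and 503 in WT and 6122, 2597 and 3094 in R255K, or 65.7, 10.7 and 6.58 FPKM in WT and 70.7, 25.2 and 29.7 FPKM in R255K. In WT 16.2% (15.1 to 17.4) remained at 4 h and 10% (9.14 to 11) at 8 h. In R255K 35.7% (34.1 to 37.4) remained at 4 h and 42% (40.2 to 43.9) at 8 h, so the 8 h library was above the 4 h library in R255K alone. Sall4 was thus 1 of the 1540 genes that were under 50% at 4 h in R255K, of which 9.16% went up from 4 to 8 h. Sox2, the other factor under 50% at 4 h, went down in both genotypes, and in WT 8.33% of the 3276 genes under 50% went up. The Sall4 share at 8 h was 4.2 times that of WT (3.8 to 4.64), and the level at 8 h was 4.52-fold higher in R255K, the widest gap between the genotypes among the 4 genes.

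**Figure D2:**
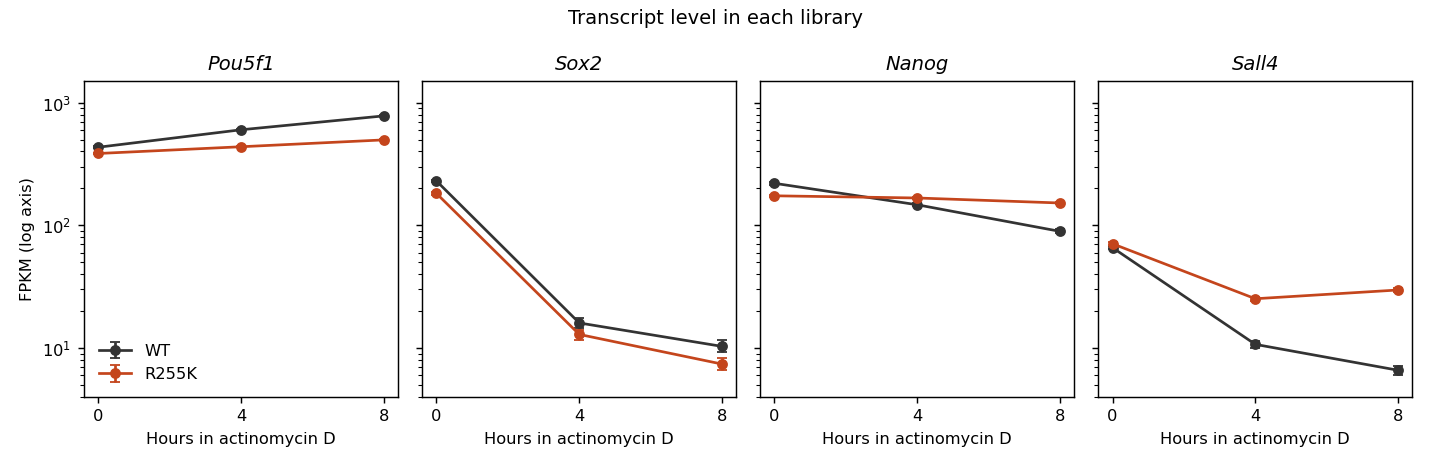
Level of each transcript in FPKM (vertical log axis) in each of the 6 libraries against hours in actinomycin D, for WT (dark) and R255K (orange). Points are single libraries and bars are 95% Poisson intervals of the counts, mostly smaller than the points. The Sox2 lines run in parallel from 230 and 182 FPKM, the Nanog lines cross between 0 and 4 h, and the Sall4 lines part from 65.7 and 70.7 to 6.58 and 29.7.

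Set against all genes, 1 of the 4 factors (Sall4, 2.2 times) kept a share at 4 h that was over 1.5 times higher in R255K, against 31.9% of genes. At 8 h it was 2 of the 4, Nanog and Sall4, against 44.5%. The 4 factors were therefore spread over the range of all genes and did not lie at one end of it. Their 8 h ratios stood above those of 13.1% (Pou5f1), 27.5% (Sox2), 70.1% (Nanog) and 88.6% (Sall4) of genes, around a median ratio of 1.33.

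**Figure D3:**
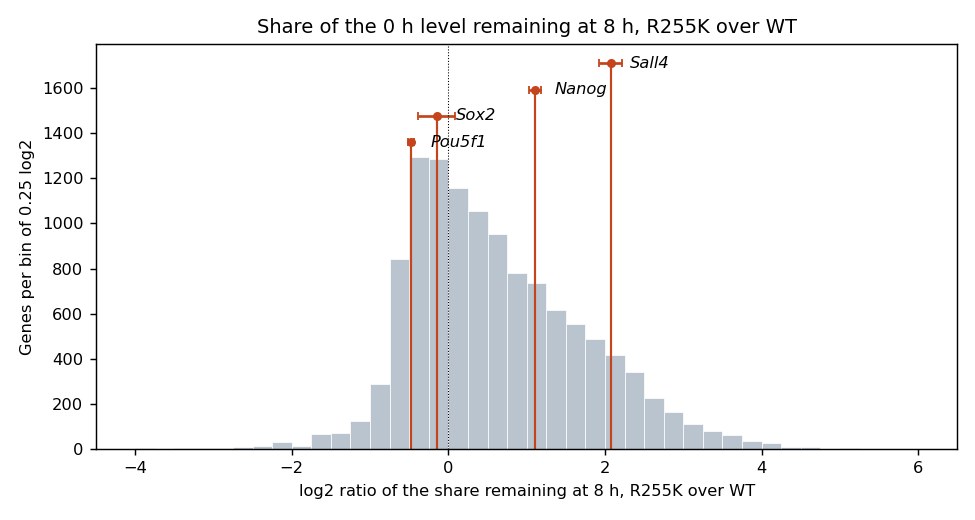
Number of genes (vertical axis) by the log2 ratio of the share of the 0 h level that remained at 8 h, R255K over WT, in bins of 0.25, for 11847 genes (grey). Orange lines mark the 4 factors at ratios of 0.717, 0.901, 2.15 and 4.2, with bars for the 95% counting interval, and the dotted line marks a ratio of 1.

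Half-lives, from the mean of the decay rates to 4 h and to 8 h, could be given for 3 of the 4 factors. That of Sox2 was 1.32 h (1.28 to 1.35) in WT and 1.3 h (1.27 to 1.34) in R255K. That of Sall4 was 1.87 h (1.81 to 1.92) and 3.79 h (3.65 to 3.94). That of Nanog was 6.5 h (6.16 to 6.87) and 50.3 h (35.5 to 86.4), the latter far beyond the 8 h observed and so only a sign of a rate near 0. In WT the order Sox2, Sall4, Nanog was separated by more than the counting intervals at each step, and it was the same in R255K.

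The R255K half-life divided by that of WT was 0.991 (0.955 to 1.03) for Sox2, 2.03 (1.93 to 2.13) for Sall4 and 7.74 (5.08 to 11.8) for Nanog. Over 5504 genes with a half-life in both genotypes the median was 1.98, with 0.899 and 6 as the 10th and 90th percentiles. Sall4 was thus at the middle of these 5504 genes, Nanog above 92.7% and Sox2 above 12.3% of them. Genes without net decay in WT, in R255K or in both are left out of this set. By the ratio of shares at 8 h over 11847 genes the order differed, with Sall4 above 88.6% and Nanog above 70.1%. Half-life ratios of all genes, here and below, refer to the 5504 genes. A ratio over 1.5 was found for 2 of the 3 factors against 68.8% of genes, and one under 1/1.5 for 0 of them against 5.78%. The Nanog ratio was 3.45 after correction for GC content, and with Gapdh as the scale the Nanog and Sall4 ratios turned below 1. The Sox2 ratio ran from 0.612 with Gapdh to 1.09 with ribosomal protein genes.

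The m6A peaks and the decay can be set side by side for the 4 genes, as a description over 4 points. Pou5f1 had 1 weak peak in WT, none in R255K and no net decay in either. Sox2 kept its peak at a higher fold enrichment in R255K, with half-lives of 1.32 h and 1.3 h. Nanog and Sall4 kept peaks at 0.74 to 0.881 times the WT fold, except for the Sall4 exon 2 peak at 1.24, and a larger share of both remained at 8 h in R255K. The peak lists carry no counts, so the error of these fold enrichments is unknown.

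Other genes of the network were described by 4 lists. The regulatory partners, 15 transcription factors and chromatin proteins that act with the 4 factors, were all expressed and all had a WT peak, against 57.4% of expressed genes. A half-life could be given for 14, of which 13 passed a ratio of 1.5, against 68.8% of all genes. Their median of 1.78 lay below the 1.98 of all genes. The highest ratios were those of Esrrb, a nuclear receptor that co-occupies pluripotency enhancers, at 3.28 (4.36 h against 14.3 h), and of Rest, a repressor of neuronal genes, at 3.23. The lowest were those of Tbx3, a T-box factor, at 1.54, and of Nr0b1 (DAX1), an atypical nuclear receptor, at 0.906 (0.547 to 1.5). The half-lives of Nr0b1, 33.1 h in WT and 30 h in R255K, lay far beyond the 8 h observed. Rif1, the partner without a ratio, had no net decay in R255K. The 8 h share of its 0 h level was 112% there, against 7.52% in WT. Its R255K counts were 1397, 4225 and 1877 at 0, 4 and 8 h, against 6061, 2047 and 361 in WT. The single R255K library at 4 h thus lay above both others, and the level fell from 4 to 8 h. Before treatment 11 of the 15 were over 1.5-fold lower in R255K and 0 higher, against 15.7% and 17.0% of all expressed genes, with a median log2 difference of −0.99. Under TMM, ribosomal protein and GC settings 9 to 12 of them were lower, and under Gapdh scaling 2 were lower and 5 higher. The partners short of that fold were Klf2, Jarid2, Zfp42 and Rest, at −0.03, −0.13, −0.28 and −0.47, and the 4 core factors were at −0.33 to 0.10. The difference between the list and the core factors was not tested.

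Of 14 genes known to be activated by the factors, 6 had a half-life in both genotypes and 5 of these passed a ratio of 1.5 (median 1.84), against 68.8% and a median of 1.98 over all genes. Tdgf1, a co-receptor of Nodal, had 3.68, and Gdf3, a ligand of the TGF-β family, had 2.32. Utf1, a chromatin-bound regulator, had 1.71, and Fgf4, a growth factor gene with a classical OCT4 and SOX2 enhancer, had 1.08 (1.03 to 1.13). The R255K half-life of Tdgf1, 44.4 h, lay far beyond the 8 h observed, so its ratio rests on a rate near 0. The share of Fgf4 left at 8 h was 6.36% in WT and 7.88% in R255K, above the 4.5% and 4.06% of Sox2. At 0 h 4 of the 14 were over 1.5-fold higher and 4 lower, against 17.0% and 15.7% of all genes, with Dppa3, a maternal effect gene, at 22 counts in WT and 339 in R255K.

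Of the 11 subunits of NuRD, a chromatin remodelling and deacetylase complex that SALL4 recruits, only Gatad2a and Gatad2b had a half-life in both genotypes with library totals as the scale. With ribosomal protein genes as the scale 7 had one. The ratios of Gatad2a and Gatad2b were 1.74 and 1.39 (with TMM factors neither passed 1.5), and Gatad2b fell faster, at half-lives of 1.77 h (WT) and 2.46 h (R255K). The list carried 10 R255K peaks and 5 WT peaks, 0 of which were without an R255K peak. This share was 47.9% over all exonic WT peaks and 27.2% over those on genes of at least 50 FPKM, a level that not every subunit reached (Gatad2b stood at 9.42 in WT). With 5 peaks no difference was tested.

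Of 20 relatives in the POU, SOX and SALL families, 15 were expressed, and 9 of these 15 passed a half-life ratio of 1.5 (median 1.59). Over all genes it was 68.8%, with a median of 1.98. From the 0 h and 8 h libraries alone, 12 of the 15 passed, against 75.5% of all genes, and no difference was tested. The ratios below are those from all times. The highest ratios were those of Pou2f1 (OCT1), a broadly expressed POU factor, at 11 (6.39 to 18.9), and of Sox12, a group C SOX factor, at 7.28 (3.23 to 16.4). The R255K half-lives behind them, 19.2 h and 41.8 h, lay beyond the 8 h observed, so both ratios rest on low rates. The lowest were those of Sox21, a group B SOX factor, at 0.828 (0.684 to 1), and of Sox1, the close relative of Sox2 in neural progenitors, at 1.03 (0.855 to 1.25). Sox1 had half-lives of 1.4 h and 1.45 h, next to the 1.32 h and 1.3 h of Sox2. Sox3, the third member of the group that holds Sox1 and Sox2, had half-lives of 3.06 h (WT) and 6.19 h (R255K), a ratio of 2.02, and is named here after its value was seen. Sall1, the relative of Sall4 with the most counts, had 2.21 h and 3.68 h, a ratio of 1.67.

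The share of WT peaks without an R255K peak was 11 of 37 for the regulatory partners, 4 of 12 for the activated genes and 16 of 43 for the relatives, beside 47.9% of all exonic WT peaks and 27.2% of those on genes of at least 50 FPKM, and no difference was tested. The lists are not matched to that level, since they hold genes below it, such as Tbx3 at 27 FPKM and Sox12 at 23.4 in WT. With Gapdh as the scale, the median half-life ratio was 0.882 over 14 regulatory partners, 0.295 over 5 activated genes and 0.559 over 15 relatives. For NuRD only 1 gene had a ratio, at 0.647. The values were thus below 1 under that scale, and that of NuRD does not stand for its list.

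**Figure D4:**
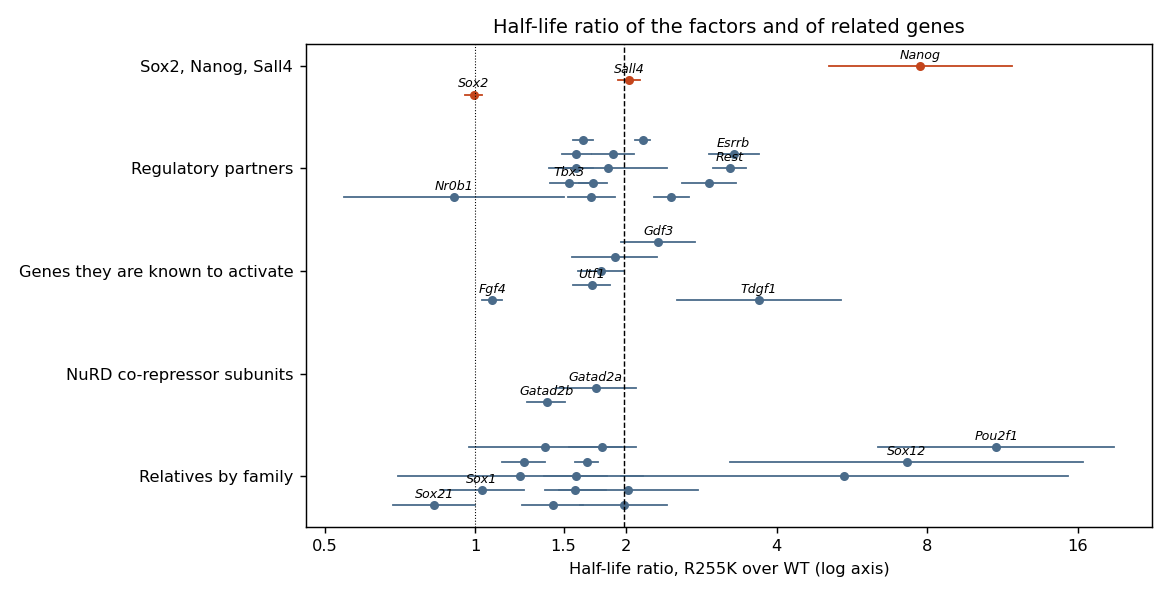
Half-life ratio, R255K over WT (horizontal log axis), for Sox2, Nanog and Sall4 (orange) and for the genes of the 4 lists that had a half-life in both genotypes (blue), spread vertically within a list for legibility. Bars are 95% counting intervals, the dotted line marks 1 and the dashed line the median of all genes, 1.98. Sox2 at 0.991 lies on the dotted line with Sox1 and Fgf4 near it, while Nanog at 7.74 lies right of every regulatory partner shown. Rif1 had no ratio and is not shown.

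The genes whose course was most like that of each factor were found by the Euclidean distance between log2 levels relative to WT 0 h over the other 5 libraries, among 10663 genes. Pou5f1 was closest to Med16 (0.07), Hadha (0.10) and Ndufb4 (0.10). Nanog was closest to Swap70 (0.14), Sft2d3 (0.18) and Clasp1 (0.22). Sall4 was closest to Cachd1 (0.39), Zfp473 (0.48) and Pqlc2 (0.50), and Sox2 to Jrk (0.48), Fbxo5 (0.70) and 9130019O22Rik (0.87). The nearest gene was thus closest for Pou5f1 and farthest for Sox2. Among the 4 factors themselves the distances ran from 2.54 between Pou5f1 and Nanog to 9.54 between Pou5f1 and Sox2, each larger than the distance of any factor to its nearest genes.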

How the data were processed

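MeRIP-seq peak lists (1 per genotype, from 2 IP and 2 input libraries) and counts per gene of 6 actinomycin D libraries were used. The authors removed rRNA reads with Bowtie2 2.2.6, aligned the rest to mm10 with HISAT2, kept unique reads with Picard 2.16.0 and SAMtools 0.1.09, and called peaks with MACS2. The deposited counts are whole numbers per gene without normalization. The deposited fold enrichment is the ratio of IP over background at the summit, and the deposited −log10 q is that of the authors' peak caller. The counting tool, the use of strand in counting and how the libraries were combined for peaks are not given in the sources used here. Every column was matched to a sample or genotype (0 left over).

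Counts were divided by library totals and exon length (FPKM). Shares that remained, decay rates (mean of the 0 to 4 h and 0 to 8 h rates) and intervals followed from the counts with Python 3.11.15, numpy 2.4.6, pandas 2.3.3 and scipy 1.17.1. Counts at 4 and 8 h were set to at least 3. The rate and its interval were tested on simulated data, where ratios of genes with few counts were recovered less well. A log2 level difference used a pseudocount of 1. Peaks were placed on the exons listed with the deposited counts by an overlap of at least 1 bp with bedtools 2.31.1. The annotation behind those exons is not given in the sources used here. Regions follow the transcript with the suffix 201 of each gene in the mm10 annotation GENCODE vM21. Sequences were read with pysam 0.24.0 from the RefSeq copy of GRCm38. TMM factors came from edgeR 4.0.16, used for nothing else, and the GC trend from statsmodels 0.14.6 (lowess span 0.3). Plots used matplotlib 3.10.9.

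Besides the 4 factors, the text names the 2 highest and 2 lowest half-life ratios of each list and the 3 nearest genes of each factor, and any other gene was named after its values were seen. The members, the lists and the rules were chosen with earlier results of these data known. No model with replicates could be fitted. Alternatives were other scalings (TMM, Gapdh, 76 ribosomal protein genes), a GC correction, single pairs of times, a pseudocount of 0.1, no FPKM minimum, and stricter peaks or overlaps.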

Additional observations from a re-analysis of the deposited data

Results flagged for a closer look

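The difference between the genotypes turned with time for Nanog. Its R255K level was below the WT level at 0 h (log2 difference −0.33) and above it at 4 h (0.18) and 8 h (0.76). The lower level at 0 h depended on the scale: the difference there was −0.11 after GC correction and 1.09 with Gapdh. The change with time was not tested, since each genotype had 1 library per time.

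For Sall4 the step from 4 to 8 h went opposite ways in the genotypes. The share of the 0 h level went from 16.2% to 10% in WT and from 35.7% to 42% in R255K. This difference was also not tested.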

How the results depend on the processing

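No paired analysis was possible because the MeRIP-seq replicates share numbers only in the labels, while the peak lists hold 1 list per genotype, and the time course has 1 library per condition. Half-life ratios of Sox2, Nanog and Sall4 (0.991, 7.74 and 2.03) were 0.929, 9.49 and 1.88 with TMM, 0.612, 0.0877 and 0.769 with Gapdh, 1.09, 5.63 and 2.2 with ribosomal protein genes, and 1.01, 3.45 and 2.16 after GC correction. Those of Sox2 and Sall4 were 1.01 and 1.76 from 0 and 4 h and 0.968 and 2.65 from 0 and 8 h. From 4 and 8 h that of Sox2 was 0.786, and Sall4 had none because its R255K level went up. Pou5f1 had no half-life ratio under any of these settings. The 0 h log2 differences of Pou5f1, Sox2, Nanog and Sall4 were −0.21, −0.38, −0.38 and 0.06 with TMM, 1.26, 1.09, 1.09 and 1.52 with Gapdh, −0.32, −0.49, −0.49 and −0.05 with ribosomal protein genes, and −0.30, −0.36, −0.11 and −0.01 after GC correction. A pseudocount of 0.1 moved none of the 4 by more than 0.01. The ratio of the shares of Pou5f1 left at 8 h, recomputed after seeing the data, was 0.548, 0.455, 1.03 and 0.835 under these 4 settings in the same order, and that of Sox2 was 0.688, 0.572, 1.29 and 0.962. Those of Nanog (1.37 to 3.09) and Sall4 (2.67 to 6.02) stayed above 1. The genes with a half-life ratio over 1.5 made 2.29% of all genes with Gapdh and 60% to 81.6% under the other alternatives. Of the 8 WT peaks, a minimum fold of 4 in both lists left 2, 1 of them without an R255K peak, and a minimum −log10 q of 5 left 7, again 1 without. The number 2 without an R255K peak was the same with 50% coverage, summit overlap or summits in exons. The causes of these shifts were not tested. Depth limits the Sox2 shares most, with 286 to 493 counts after treatment.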
